A study of Mus musculus with 32 samples.

Results

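Interscapular brown adipose tissue (iBAT) makes heat, and 6 genes at the centre of that function were followed over the day: Ucp1, Ucp2 and Ucp3, which encode uncoupling proteins, Dio2, which encodes type 2 iodothyronine deiodinase, and Ppargc1a and Ppargc1b, which encode the coactivators PGC-1α and PGC-1β. They were chosen by name, as the rows of the count table whose Ensembl identifiers carry these symbols, and all 6 were found among its 50686 genes. The iBAT came from male C57BL/6J mice of 10 weeks, without genetic modification or treatment, fed chow ad libitum and housed at a temperature that is a mild cold for mice. They were killed by CO2 at 8 Zeitgeber times (ZT, hours after lights on), every 3 h from ZT0 to ZT21, where ZT12 opens the dark, active phase, with 4 mice per time point and 1 RNA-sequencing library per mouse. The libraries of a time point also shared a sequencing lane. Lane 2 held the 12 libraries of ZT0 to ZT6, lane 3 the 12 libraries of ZT9 to ZT15, and lane 4 the 8 libraries of ZT18 and ZT21. Between lanes, the hour and the lane cannot be told apart, and values within lanes are given beside the pooled ones.

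UCP1 sits in the inner mitochondrial membrane of brown adipocytes and lets protons return to the matrix without making ATP, so that the energy of fuel oxidation is released as heat. DIO2 turns the prohormone thyroxine into the active hormone triiodothyronine inside the cell, and the PGC-1 proteins join transcription factors to raise mitochondrial and thermogenic gene expression. Noradrenaline from sympathetic nerves, acting through β-adrenergic receptors and cyclic AMP, is the classical inducer of Ucp1, Dio2 and Ppargc1a in brown fat during cold. UCP2 and UCP3 are relatives of UCP1 whose role is less clear; Ucp2 is transcribed in many cell types, immune cells among them, and Ucp3 mainly in brown fat and skeletal muscle.

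In GRCm38, Ucp1 lies on chromosome 8 (83290352 to 83298452, plus strand, 6 merged exons) and Dio2 on chromosome 12 (90724552 to 90738438, minus strand, 2 merged exons). Ucp3 (100472990 to 100486432) and Ucp2 (100493337 to 100502020) follow each other on the plus strand of chromosome 7, 6904 bases apart. Ppargc1a lies on chromosome 5 (51454250 to 51567726, minus strand) and, like Ppargc1b, has 14 merged exons. All 6 are protein coding. Ucp2 shares 305 exon bases (4.36% of its own) with Dnajb13 and Dio2 shares 100 (1.72%) with Gm26512, both on the opposite strand, and since the strand setting of the counting is not stated, reads from these stretches are uncertain. Counts per gene also cannot separate the isoforms of Ppargc1a.

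Cyclic AMP acts on transcription through CREB, whose full response element reads TGACGTCA and whose half-site reads TGACG, or on the other strand CGTCA. The 250 bases before the RefSeq start (GRCm38.p6, read 5′ to 3′ on the strand of the gene) are shown for the 3 members that cyclic AMP is known to induce, with matches to these letters, and to the nuclear receptor half-site AGGTCA, in capitals. They cover chr12:90739039-90739288 (minus strand) for Dio2, chr5:51567726-51567975 (minus strand) for Ppargc1a and chr8:83290098-83290347 (plus strand) for Ucp1.
Dio2: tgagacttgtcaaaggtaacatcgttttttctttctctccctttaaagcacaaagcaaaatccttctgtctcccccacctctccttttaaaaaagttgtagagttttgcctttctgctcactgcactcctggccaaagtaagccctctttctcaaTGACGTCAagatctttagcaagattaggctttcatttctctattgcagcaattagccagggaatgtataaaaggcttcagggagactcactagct
Ppargc1a: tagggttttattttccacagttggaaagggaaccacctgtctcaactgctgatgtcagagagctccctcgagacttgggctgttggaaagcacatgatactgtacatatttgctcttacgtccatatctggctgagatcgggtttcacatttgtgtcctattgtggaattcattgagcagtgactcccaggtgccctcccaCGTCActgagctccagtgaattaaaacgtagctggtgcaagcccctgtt
Ucp1: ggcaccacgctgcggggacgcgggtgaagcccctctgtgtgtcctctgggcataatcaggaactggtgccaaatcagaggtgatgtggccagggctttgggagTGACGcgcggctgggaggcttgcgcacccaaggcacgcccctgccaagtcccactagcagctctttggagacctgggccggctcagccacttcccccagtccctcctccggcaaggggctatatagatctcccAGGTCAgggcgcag

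The window of Dio2 held the full element, starting 95 bases before the start, and both of its half-site matches lie inside it. The full element was found in 508 of 32851 RefSeq promoter windows of this length (1.55%). Half-sites alone stood 49 bases before the start of Ppargc1a and 147 bases before that of Ucp1, and 17.8% of all windows held one. Ucp1 also had AGGTCA 14 bases before its start, Ucp3 had it in 2 places and Ucp2 had 1 half-site of the cyclic AMP element, where 14.0% of windows held AGGTCA on either strand. Clock proteins bind the E-box CACGTG (6.02% of windows) and the D-box TTATGTAA (0.819%), and neither was found in the windows of these 5 genes. The RefSeq start of Dio2 lies 600 bases upstream of its GENCODE start. Letters alone show neither binding nor use of a site.

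Libraries held 16300770 to 18254659 counts, and each member was counted in every library. Levels are given as CPM, read counts scaled by TMM to a common library total, and as RPKM, CPM per kb of merged exon, where genes are compared with each other. All 10 brown adipocyte markers, Ucp1 itself among them, were found, with sums of 10460 to 16560 CPM per library. The 12 skeletal muscle markers summed to 2.79 to 7697 CPM (median 530.4), with 15 libraries above 1000 CPM. The 10 leukocyte markers summed to 89.99 to 352.0 CPM and the 5 white adipocyte markers to 50.8 to 428.8 CPM. In bulk tissue, fewer cells of a type and less RNA per cell cannot be told apart, which holds for every level below.

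Ucp1 was by far the most abundant member. Its mean over the 32 libraries was 1350 RPKM ± 501 (SD), and at 2209 CPM it ranked 27th by CPM among the 15505 genes tested. Ucp3 followed with 33.8 RPKM ± 12.4 and Ppargc1b with 19.0 RPKM ± 5.01. Ppargc1a (6.18 RPKM ± 2.12), Dio2 (5.84 RPKM ± 4.49) and Ucp2 (5.10 RPKM ± 1.02) lay close together in means per length, and with the length of the longest coding transcript in place of the merged exons Ucp2 came to 8.94 RPKM, above the other 2. Time of day differed with the gene: the highest mean of Ucp1 was at ZT9, those of Ucp2, Ucp3 and Ppargc1a at ZT6, that of Ppargc1b at ZT15 and that of Dio2 at ZT18.

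**Figure D1:**
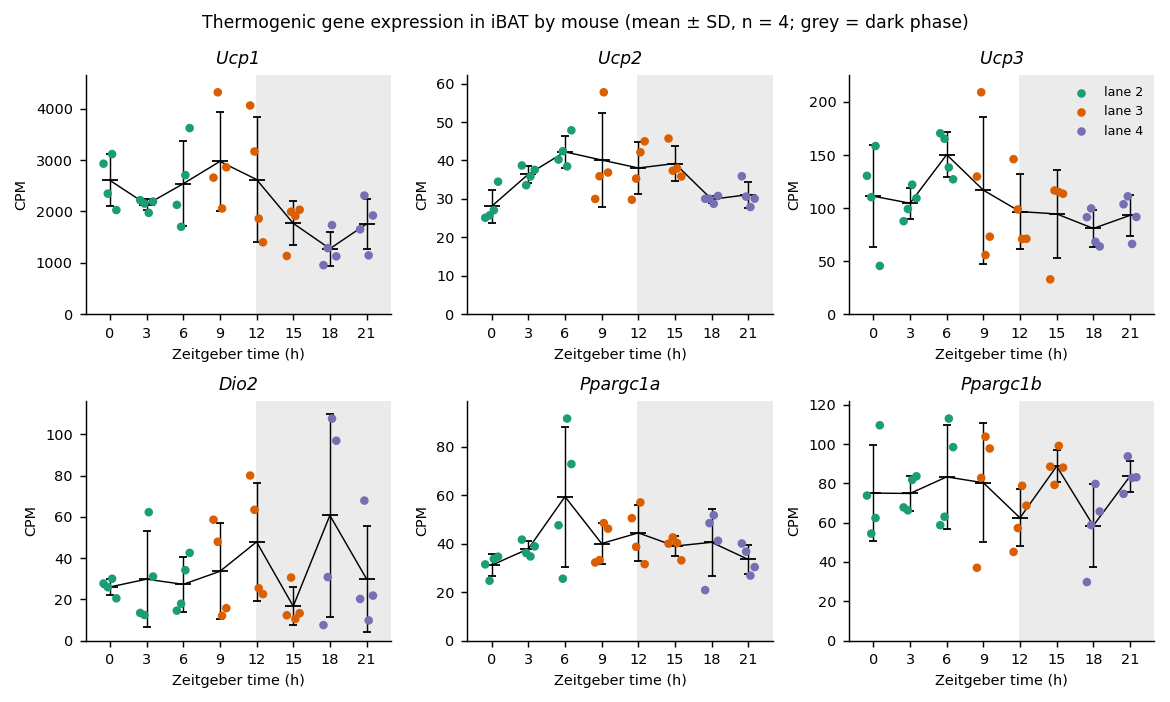
Expression of the 6 genes in CPM (vertical axes, from 0) against Zeitgeber time in hours. Points are single mice coloured by sequencing lane, horizontal marks and bars are the mean ± SD of 4 mice, and grey marks the dark phase. Ucp1 ran from 955.0 to 1733 CPM at ZT18, its lowest mean, and from 2057 to 4318 CPM at ZT9, its highest. Dio2 ran from 7.49 to 107.6 CPM within ZT18 alone.

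Ucp1 was high from ZT0 to ZT12 and lower from ZT15 to ZT21. At ZT0 the 4 mice had 2929, 2346, 3116 and 2027 CPM, at ZT3 they had 2219, 2153, 1972 and 2192 CPM, and at ZT6 they had 2128, 1701, 2706 and 3622 CPM. The highest mean came at ZT9, with 2658, 4318, 2057 and 2858 CPM (2973 ± 960, SD, n = 4). At ZT12 the mice were split, with 4061 and 3166 CPM in a pair of them and 1860 and 1399 CPM in the other two. Later in the dark phase it was lower: 1134, 1994, 1911 and 2033 CPM at ZT15, 955.0, 1286, 1733 and 1126 CPM at ZT18 (1275 ± 334, SD, n = 4), and 1652, 2309, 1145 and 1921 CPM at ZT21. The mean at ZT9 was 2.33-fold that at ZT18, and the ranges of these extremes, picked because they are the extremes, did not overlap. The 4 libraries of ZT18 also had the lowest shares of mitochondrially encoded reads of all, 18.5% to 20.7% against 21.2% to 28.2% in the other 28, and the part of this in the Ucp1 level was not tested. Neighbouring time points in the order of means (ZT9, ZT12, ZT0, ZT6, ZT3, ZT15, ZT21, ZT18) overlapped in all 7 cases and differed by less than the larger SD of the pair.

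Ucp2 rose from lights on towards the middle of the light phase. It had 25.1, 25.7, 27.1 and 34.5 CPM at ZT0 (28.1 ± 4.34, SD, n = 4), 38.7, 33.6, 35.8 and 37.6 CPM at ZT3, and 40.2, 42.4, 38.5 and 47.9 CPM at ZT6 (42.2 ± 4.07). In the next 3 time points the means stayed between 38.1 and 40.1 CPM, with 57.7 CPM in ZT9 replicate 3, the highest of all libraries. The level was then low again, with 30.0, 30.0, 28.7 and 30.8 CPM at ZT18 (29.9 ± 0.848) and 35.9, 30.6, 27.9 and 30.1 CPM at ZT21. Along the order of means, ranges of neighbours overlapped in all 7 cases, and ZT3 against ZT21 was the step larger than the larger SD.

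Ucp3, the neighbour of Ucp2 on chromosome 7, had its highest mean at ZT6, with 170.5, 165.3, 138.3 and 127.1 CPM (150.3 ± 20.9, SD, n = 4). At ZT18, the time of its lowest mean, the mice had 91.4, 99.7, 68.2 and 63.9 CPM (80.8 ± 17.4). The ranges of these extremes, again picked as such, did not overlap. At this fixed pair of hours 22.9% of all genes did not overlap. The share of genes that separate at their own extremes was not computed. The spread was widest at ZT9, where Ucp3 ran from 55.8 to 209.1 CPM and the highest library of all was found, and narrowest at ZT3 (SD 14.7 CPM). The order of its means was ZT6, ZT9, ZT0, ZT3, ZT12, ZT15, ZT21 and ZT18, each overlapping the next.

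Dio2 showed the widest spread. At ZT18, the highest mean (60.7 CPM ± 49.1, SD, n = 4), the mice had 7.49, 30.7, 107.6 and 96.9 CPM, so that the lowest library of all and the highest came from the same time point. At ZT15, the lowest mean (16.6 CPM ± 9.35), they had 12.3, 30.6, 10.5 and 13.3 CPM. At ZT12 they had 80.0, 63.4, 25.4 and 22.5 CPM, with the same 2 mice high as for Ucp1. ZT9 was split in a like way, with 58.6 and 47.9 CPM against 12.0 and 15.7 CPM. Over the 32 libraries Dio2 varied 14.4-fold, against 4.52-fold for Ucp1 and 2.30-fold for Ucp2. Its means fell in the order ZT18, ZT12, ZT9, ZT21, ZT3, ZT6, ZT0 and ZT15, with every neighbour overlapping and within 1 SD.

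Ppargc1a and Ppargc1b encode proteins that share partners, but their means were ordered differently over the day. Ppargc1a was highest at ZT6, where the mice had 47.6, 25.6, 91.7 and 72.9 CPM (59.4 ± 28.9, SD, n = 4), and lowest at ZT0, with 31.5, 24.7, 33.7 and 34.7 CPM (31.1 ± 4.49). The ranges of these time points overlapped because of ZT6 replicate 2. At ZT3 Ppargc1a ran from 34.7 to 41.7 CPM. Ppargc1b was highest at ZT15 (88.6, 79.3, 99.1 and 88.1 CPM, mean 88.7 ± 8.14) and lowest at ZT18 (29.8, 58.8, 79.7 and 65.7 CPM, mean 58.5 ± 21.1), and its values at ZT6 ran from 58.7 to 113.0 CPM. For both genes all neighbours in the order of means overlapped.

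The study asked which transcripts oscillate over the day, and used JTK, a rank test against cosine shapes, with P under 0.05. By this test 2 of the 6 members oscillated, against 36.9% of all tested genes (27.5% with Benjamini-Hochberg (BH) adjustment). With its exact null distribution these were Ucp1 (JTK P = 0.0109, BH-adjusted 0.0409 over all tested genes, lag 6 h) and Ucp2 (JTK P = 0.00241, BH-adjusted 0.0130, lag 9 h). Each exact JTK P here is the smallest over 15 cosine templates, Bonferroni-adjusted for these and capped at 1. Ucp3 had an exact JTK P of 0.146 and Ppargc1a one of 0.522, and Dio2 and Ppargc1b were at the cap. Without ZT9 replicate 3, Ucp3 had an exact JTK P of 0.0434. The share of 2 in 6 is near that of all tested genes.

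A count model (edgeR, quasi-likelihood, adjusted over all tested genes) of a 24 h cosine gave the same 2 members, against 36.1% of genes. Ucp2 had an adjusted p of 0.00145 in edgeR, a peak at ZT9.2 (SE 0.848 h) and an amplitude of 0.25 (SE 0.05) on the log2 scale, a peak 1.41-fold its trough. Ucp1 had a larger amplitude, 0.43 (SE 0.11), a peak 1.83-fold its trough at ZT6.5, and an adjusted p of 0.0096. Ppargc1a (amplitude 0.23, SE 0.10, peak ZT9.2, edgeR adjusted p = 0.0985) and Ucp3 (amplitude 0.32, SE 0.14, peak ZT5.3, edgeR adjusted p = 0.106) missed the threshold. Dio2 (amplitude 0.09, SE 0.26, edgeR adjusted p = 0.613) and Ppargc1b (amplitude 0.08, SE 0.11, edgeR adjusted p = 0.852) had amplitudes below their errors, and for Dio2 the SE alone spans the amplitude of Ucp2.

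A test of any difference between the 8 time points, whatever its shape, also called Ucp1 (edgeR adjusted p = 0.0169) and Ucp2 (edgeR adjusted p = 0.00897), against 39.8% of genes. Ppargc1a had 0.105 here (0.0428 with DESeq2), but leaving out ZT6 replicate 2 gave 0.00800 and leaving out ZT18 replicate 1 gave 0.0494, so whether it passed depended on single mice. Dio2 (0.299), Ppargc1b (0.430) and Ucp3 (0.453) did not pass. No member had a pattern beyond the single cosine by edgeR (adjusted p 0.295 to 0.902, against 9.39% of genes called), and none had an unadjusted p under 0.05 there. Without the 8 libraries above 5 times the median of muscle markers, Ucp1 was no longer called (exact JTK P = 0.180, edgeR adjusted p = 0.0637 for the cosine and 0.148 between time points) and Ucp2 still was. On all 32 libraries with the log2 muscle marker sum as a covariate, an alternative added after the data had been seen, both were called (edgeR adjusted p for the cosine 0.0153 for Ucp1 and 0.00206 for Ucp2, and between time points 0.0192 and 0.0110).

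Lane changed which member was called. With lane as an additive factor beside the cosine, 17.2% of genes and 1 of the 6 members passed, Ppargc1a, with an edgeR adjusted p of 0.0218, a peak at ZT11.4 (SE 1.21 h) and an amplitude of 0.58 (SE 0.22). Its call was lost without ZT0 replicate 2 (0.0512), ZT6 replicate 3 (0.113) or ZT6 replicate 4 (0.0670), and without the 8 libraries high in muscle markers (0.115). Ucp2 had an edgeR adjusted p of 0.0840 beside lane, which passed without ZT9 replicate 1 (0.0308) or ZT15 replicate 1 (0.0323), and Ucp1 had 0.202. Their fitted amplitudes beside lane were not smaller but less precise, 0.28 (SE 0.11, peak ZT10.0) for Ucp2 and 0.54 (SE 0.24, peak ZT3.3) for Ucp1. Within lane 2, where 13.3% of genes differed between ZT0, ZT3 and ZT6, Ucp2 passed (edgeR adjusted p = 0.0115) and Ppargc1a had 0.0820, which DESeq2 put at 0.0142. Without ZT6 replicate 2, Ppargc1a passed within lane 2 as well (edgeR adjusted p = 0.00797), and without ZT0 replicate 4 Ucp3 did (0.0419). Within lane 3 (1.93% of genes called) and lane 4 (4.48%) no member passed in edgeR or DESeq2, and none had an unadjusted edgeR p under 0.05, the lowest being 0.0619 for Dio2 in lane 3 and 0.0573 for Ppargc1b in lane 4.

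ZT18 against ZT6 sets mid-dark beside mid-light, on lanes 4 and 2. Ucp1 had a log2 fold change of -0.99 (SE 0.29, edgeR adjusted p = 0.0171) and Ucp2 one of -0.50 (SE 0.14, edgeR adjusted p = 0.0181), so 2 of 6 members were lower, where 16.9% of genes were called, 8.68% lower and 8.18% higher. Ucp3 had a log2 fold change of -0.90 (SE 0.37) with an edgeR adjusted p of 0.0958, which passed on the 8 libraries of ZT6 and ZT18 alone (-0.90, edgeR adjusted p = 0.00511) and with the leukocyte covariate described further on (-1.14, edgeR adjusted p = 0.00587). Ppargc1a (-0.55, SE 0.27, edgeR adjusted p = 0.163) and Ppargc1b (-0.51, SE 0.27, edgeR adjusted p = 0.209) did not pass. Dio2 was the member with a positive value, 1.15 (SE 0.67, edgeR adjusted p = 0.252). Leaving out 1 library took it from 0.72 (without ZT18 replicate 3) to 1.52 (without ZT18 replicate 1). For Ppargc1b such fits ran from -0.70 (without ZT18 replicate 3) to -0.29 (without ZT18 replicate 1). The mice at ZT18 and ZT6 did not overlap for Ucp2 and Ucp3, 2 of 6 members, against 22.9% of genes, while those of Ucp1 did between 1701 and 1733 CPM. Ucp1 lost its call without ZT6 replicate 4 (-0.78, edgeR adjusted p = 0.0738) or ZT18 replicate 1 (-0.88, 0.0663), and Ucp2 without ZT6 replicate 4 (-0.44, 0.0582). Calls were also lost with log2 fold changes of -0.94 for Ucp1 without the libraries high in muscle markers (edgeR adjusted p = 0.0511) and -0.49 for Ucp2 with library size alone (edgeR adjusted p = 0.0535). Ppargc1a gained one without ZT6 replicate 2 (-0.80, edgeR adjusted p = 0.0248), but without ZT6 replicate 3 its value was -0.26 (edgeR adjusted p = 0.568).

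ZT12 against ZT0 sets dark onset beside light onset, the hours at which the study examined its other mice. Ucp2 alone passed, with a log2 fold change of 0.44 (SE 0.15, edgeR adjusted p = 0.0394), where 15.9% of genes were called, 7.71% higher and 8.15% lower. The other 5 members had edgeR adjusted p between 0.201 for Ppargc1a (log2 fold change 0.51, SE 0.27) and 0.988 for Ucp1 (0.01, SE 0.28), with a log2 fold change of 0.88 (SE 0.67) for Dio2. Leaving out 1 library took that of Dio2 from 0.51 (without ZT12 replicate 1) to 1.11 (without ZT12 replicate 4). No member separated the mice of ZT12 from those of ZT0 without overlap, against 16.3% of genes. The call of Ucp2 was lost on leaving out ZT0 replicate 1, 2 or 3, or ZT12 replicate 3 or 4 (adjusted p 0.0878 to 0.143). The summed leukocyte markers differed in the same direction, with means of 111.4 CPM at ZT0 and 175.4 CPM at ZT12. With their log2 sum as a covariate the log2 fold change of Ucp2 was 0.24 (edgeR adjusted p = 0.25). The part of leukocyte content in this difference was not tested. ZT0 and ZT12 were on lanes 2 and 3, so hour and lane cannot be told apart here.

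**Figure D2:**
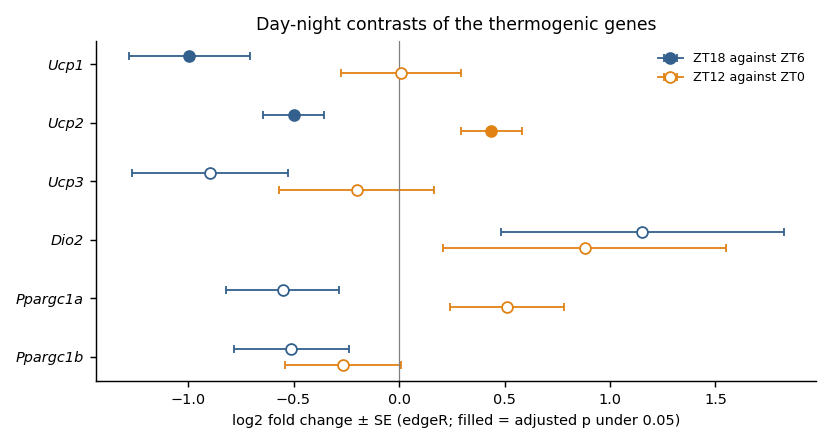
Log2 fold changes (horizontal axis) with their SE for each of the 6 genes, for ZT18 against ZT6 (blue) and ZT12 against ZT0 (orange), from edgeR on 32 libraries. Filled points passed an adjusted p of 0.05: Ucp1 (-0.99) and Ucp2 (-0.50) at ZT18, and Ucp2 (0.44) at ZT12, and the bars of Dio2 (SE 0.67) are the widest.

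Mice of the same time point differed more in these genes than in most others. Among the 8527 genes with a mean of at least 10 CPM, the within-time SD of Dio2 (1.06 on the log2 scale) ranked 57th, at percentile 99.3, against a median SD of 0.14. Ucp3 (SD 0.58) stood at percentile 98.1, Ucp1 (0.43) at 96.3, Ppargc1b (0.43) at 96.2 and Ppargc1a (0.42) at 96.0, while Ucp2 (0.21) was at 80.2. Differences between time-point means made up 55.0% of the log2 variance of Ucp2 and 50.1% of that of Ucp1, against a median of 41.1% over tested genes. The share was 27.4% for Ppargc1a, 25.1% for Ppargc1b, 20.9% for Ucp3 and 17.9% for Dio2. These shares are not corrected for the number of time points, so a part of each arises without any effect of time.

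That spread made it possible to ask which members went together in single mice once time, and with it lane, was removed. Deviations of log2 CPM from the time-point mean were correlated for the 15 pairs of members over 32 mice, with two-sided permutation of mice within time points (100000 resamples) and BH adjustment over the 15 pairs, and 4 pairs passed. A mouse with more Ucp1 than its fellows had more Dio2: r = 0.623 (permutation p = 6.4e-04, adjusted 0.00817) and rho = 0.616 (permutation p = 9.9e-04, adjusted 0.0148), with the same sign in 7 of 8 time points. Lane 2 gave r = 0.402, lane 3 gave 0.693 and lane 4 gave 0.775 (exact permutation p = 0.173, 0.0375 and 0.0347), and dropping the most distant 2 libraries left r = 0.596. Beside the mice of ZT12 above, ZT21 replicate 2 was the highest of its time point for both (2309 CPM of Ucp1 and 67.9 CPM of Dio2) and ZT21 replicate 3 the lowest (1145 and 9.74 CPM).

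Ucp1 and Ucp3 also went together, with r = 0.607 (permutation p = 0.00109, adjusted 0.00817) and rho = 0.577 (permutation p = 0.00305, adjusted 0.0227), in the same direction in 5 of 8 time points. Their relation was uneven between lanes, with r = 0.231, 0.825 and 0.340 within lanes 2, 3 and 4 (exact permutation p = 0.559, 0.00159 and 0.444). Without the 2 farthest libraries r was 0.578. Without the 8 libraries high in muscle markers it was 0.466 and no longer passed (permutation p adjusted 0.232). Ucp2 and Ucp3, adjacent in the genome, went in opposite directions, with r = -0.651 (permutation p = 0.00251, adjusted 0.0125) and rho = -0.509 (permutation p = 0.0121, adjusted 0.0362). In lanes 2 and 3 r was -0.751 and -0.742 (exact permutation p = 0.0745 and 0.00774), but in lane 4 it was 0.489 (exact permutation p = 0.306). Without ZT0 replicate 4 and ZT9 replicate 3 r was -0.472 (permutation p = 0.0454, adjusted 0.170), so that it kept its sign but no longer passed after adjustment.

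The coactivators Ppargc1a and Ppargc1b went together, with r = 0.619 (permutation p = 0.00443, adjusted 0.0166) and rho = 0.596 (permutation p = 0.00606, adjusted 0.0227). In 4 of 8 time points the sign was positive, and within lanes 2, 3 and 4 r was 0.681, 0.381 and 0.847 (exact permutation p = 0.0627, 0.365 and 0.0990). Without ZT6 replicate 2 and ZT18 replicate 1, both low in the pair of genes, r was 0.490 (permutation p = 0.0447, adjusted 0.170), again with its sign kept and the adjusted threshold missed, and without ZT18 replicate 1 alone the adjusted p was 0.0697. Ppargc1a and Ucp1 had r = 0.407 (adjusted 0.0908), and Ppargc1b and Ucp1 r = 0.0588 (adjusted 0.783), neither past the threshold.

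**Figure D3:**
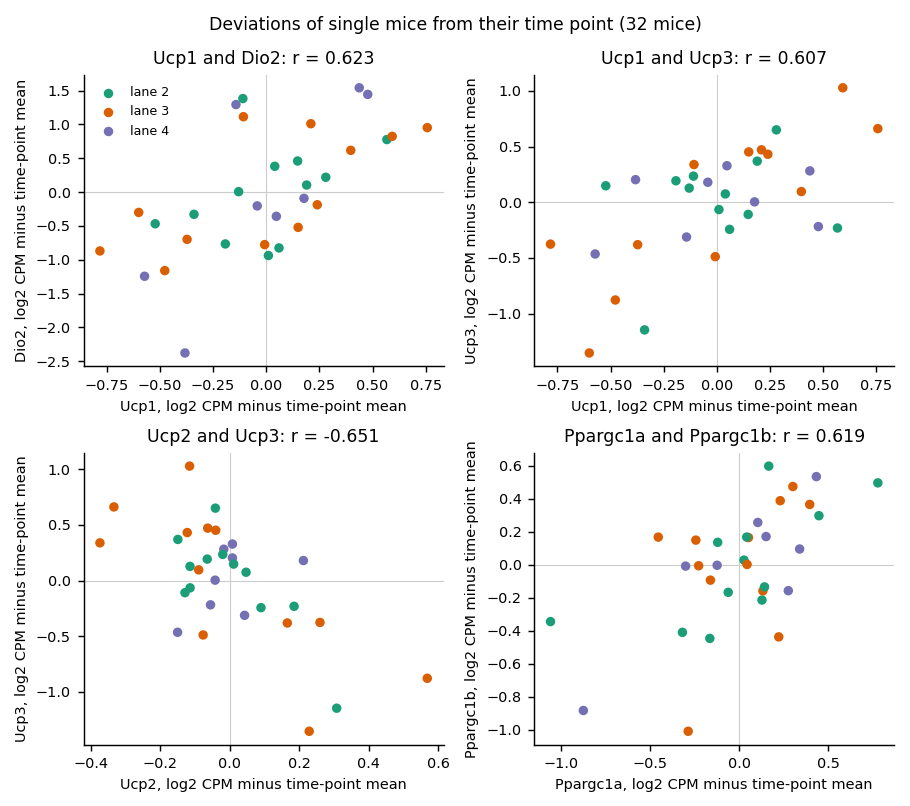
Deviation of each of 32 mice from the mean of its time point, in log2 CPM, for the 4 pairs of genes that passed BH adjustment over 15 pairs, with points coloured by sequencing lane and grey lines at 0. Ucp1 rises with Dio2 (r = 0.623) and with Ucp3 (r = 0.607), Ucp2 goes against Ucp3 (r = -0.651), and Ppargc1a rises with Ppargc1b (r = 0.619), the last 2 with a few mice far out.

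Markers of other cell types were set beside these deviations, as 18 relations of the 6 members with the summed muscle, leukocyte and white adipocyte markers. Ucp1 was lower in mice with more leukocyte marker RNA (r = -0.711, permutation p = 6e-05, adjusted 0.00108 over the 18; rho = -0.679, permutation p = 2.7e-04, adjusted 0.00486), with r = -0.703, -0.712 and -0.723 within lanes 2, 3 and 4 and -0.662 without the 2 farthest libraries. For Ucp3 r was -0.700 (permutation p = 5.3e-04, adjusted 0.00477), with rho = -0.532 (adjusted 0.0613) and lane values of -0.533, -0.770 and -0.721. The other 16 relations did not pass. Ucp2 had r = 0.574 (adjusted 0.124) with leukocytes, which became 0.228 without the 2 farthest libraries; ZT9 replicate 3, the mouse with the most Ucp2, had the highest leukocyte sum, 352.0 CPM. Dio2 had r = -0.373 (adjusted 0.166). Muscle markers had r between -0.254 for Ucp3 and 0.0516 for Dio2, and none passed.

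With the log2 leukocyte sum as a covariate, an alternative added after the data had been seen, the cosine of Ucp1 had an edgeR adjusted p of 1.1e-05, and 0.00398 beside lane. Ucp3, not called without it, then had 8.9e-04 for the cosine and 0.0141 beside lane, and Ucp2 had 0.0312 and 0.352. The relation of Ucp1 with Dio2 remained past the threshold on removing the leukocyte sum (r = 0.548, permutation p = 0.00590, adjusted 0.0221), whereas that of Ucp1 with Ucp3 was 0.218 (adjusted 0.465) and that of Ucp2 with Ucp3 -0.426 (adjusted 0.0892). The relation of Ppargc1a with Ppargc1b remained past it (r = 0.645, adjusted 0.0214), and 3 further pairs passed on removing the leukocyte sum: Ucp2 with Ppargc1b (r = 0.555, adjusted 0.0214), Ucp3 with Ppargc1b (r = -0.551, adjusted 0.0214) and Ucp3 with Ppargc1a (r = -0.456, adjusted 0.0406). Over all mice and without that step, Ucp3 with Ppargc1b had r = -0.448 (permutation p = 0.0255, adjusted 0.0765) and rho = -0.508 (permutation p = 0.00561, adjusted 0.0227). Leukocyte sums were lowest on average at ZT0 (111.4 CPM) and highest at ZT9 (198.1 CPM), where replicate 3 (352.0 CPM) raised the mean; by median ZT3 was highest (195.7 CPM, against 162.4 CPM at ZT9).

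**Figure D4:**
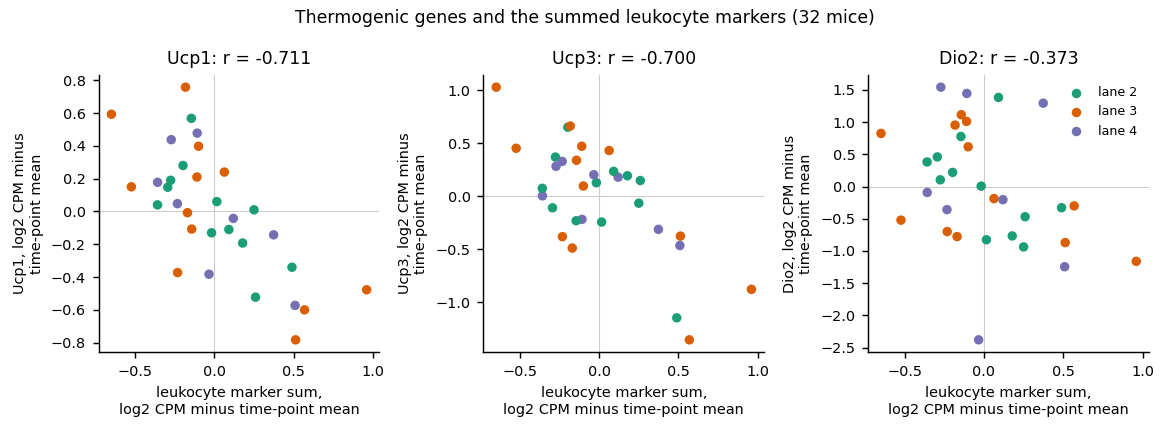
Deviation of Ucp1, Ucp3 and Dio2 (vertical axes) against that of the summed 10 leukocyte markers (horizontal axes), both in log2 CPM minus the mean of the time point, in 32 mice coloured by lane. Ucp1 (r = -0.711) and Ucp3 (r = -0.700) fall as the marker sum rises, and Dio2 (r = -0.373, not past the threshold) is more scattered.

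The genes whose log2 CPM followed each member most closely over the 32 libraries, among 13448 tested genes with a mean of at least 1 CPM, differed from member to member. They are a description, since all genes share the libraries and their lanes. For Ucp1 they were Cluh, which binds mRNAs of mitochondrial proteins (r = 0.834), the acyltransferase Agpat3 (0.825) and Apmap (0.824). Ucp2 was nearest to Rassf4 (0.868), the lysosomal protease gene Ctsa (0.865) and the AMP deaminase Ampd2 (0.841). Ucp3 was nearest to Aspg (0.869), the mechanosensitive channel gene Piezo1 (0.857) and the peroxisomal thiolase Acaa1b (0.816). Dio2 had Arl4a (0.740), the pseudokinase Trib1 (0.696) and Noct, which encodes nocturnin (0.674). For the coactivators they were Cdip1 (0.752), Col13a1 (0.708) and the iron exporter Slc40a1 (0.673) for Ppargc1a, and Plxna1 (0.735), Ahdc1 (0.725) and Clec18a (0.711) for Ppargc1b.

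The pathways around the members were followed through 7 gene lists, read against the 36.1% of all tested genes with a cosine by edgeR and a median log2 amplitude of 0.14 over all of them. Of all tested genes, 18.4% were called with a peak in the light phase and 17.7% with one in the dark, and 17.2% passed beside lane. Among the regulators of Ucp1, 8 of 14 had a cosine (median amplitude 0.20), 7 of them with a peak in the light phase as for Ucp1, and 5 of 14 passed beside lane. The clock repressors Nr1d1 (peak ZT7.2, amplitude 1.97, edgeR adjusted p = 9.6e-15) and Nr1d2 (ZT9.9, 1.34, 1.3e-11), which bind DNA as REV-ERBα and REV-ERBβ, had the largest swings and passed beside lane. Adrb3, which encodes the β3-adrenergic receptor, peaked at ZT0.5 with an amplitude of 0.72 (edgeR adjusted p = 2.7e-05; beside lane 0.52, SE 0.24, edgeR adjusted p = 0.124), and fell by 1.82 at ZT12 against ZT0 on the log2 scale (adjusted p = 8.3e-05). Irf4, a partner of PGC-1α in thermogenic transcription, peaked at ZT4.2 (amplitude 0.54, edgeR adjusted p = 0.0185, exact JTK P = 0.815). The brown fat identity genes Prdm16 and Ebf2 had cosine adjusted p of 0.735 and 0.671 in edgeR, but Ebf2 passed beside lane (amplitude 0.48, edgeR adjusted p = 0.0471) and Prdm16 differed between time points (edgeR adjusted p = 0.0148) and beyond the cosine (0.0236).

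Partners and co-regulators of PGC-1 were called in 12 of 24 cases, 7 with a peak in the light and 5 in the dark, and 11 of 24 passed beside lane. Ppara, the fatty acid receptor that PGC-1α coactivates, peaked at ZT8.6 (amplitude 0.60, edgeR adjusted p = 0.0105, 0.0311 beside lane) and Foxo1 at ZT10.5 (0.41, 2.8e-05, 0.00879 beside lane). Esrrg, an oestrogen-related receptor, peaked at ZT9.4 (amplitude 0.31, edgeR adjusted p = 0.00144), and beside lane its amplitude was 0.32 (SE 0.12, edgeR adjusted p = 0.126). Lpin1 peaked in the dark at ZT17.1 (amplitude 0.41, edgeR adjusted p = 3.3e-04, 1.4e-04 beside lane). At ZT18 against ZT6, 6 of the 24 were higher and 4 lower, against 8.18% and 8.68% of all genes. The mitochondrial targets of PGC-1, such as Tfam and the subunits of oxidative phosphorylation, formed a list of 14, of which 1 had a cosine, Cycs (cytochrome c, peak ZT22.3, amplitude 0.17, edgeR adjusted p = 0.0132). Their median amplitude was 0.05, and beside lane 0 of 14 passed in edgeR, also at an unadjusted p under 0.05. At ZT12 against ZT0, 2 of the 14 were called, Mfn2 (mitofusin 2) higher (log2 fold change 0.27, edgeR adjusted p = 0.0270) and Cycs lower (-0.40, edgeR adjusted p = 0.0250), against 15.9% of all genes.

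For Dio2, the thyroid hormone list held 12 tested genes of 15, and Dio1 and Dio3, which encode the other deiodinases, were too low to be tested. A cosine was called for 5 of the 12, and for 1 beside lane. The receptor gene Thra peaked at ZT3.4 (amplitude 0.17, edgeR adjusted p = 0.00469; beside lane 0.20, SE 0.11, edgeR adjusted p = 0.295) and Thrsp, a thyroid-responsive lipogenic gene, at ZT20.4 (0.38, 0.0137). Wsb1 and March6, each of a ubiquitin ligase that acts on DIO2 protein, peaked at ZT4.1 (amplitude 0.24, edgeR adjusted p = 0.0201) and ZT8.9 (0.14, 0.0139), and March6 was the one that passed beside lane (0.0108). Among acute cyclic AMP-responsive genes, 6 of 9 had a cosine (median amplitude 0.41) and Per1, also a clock gene (peak ZT11.5, amplitude 0.99, edgeR adjusted p = 7.1e-06), was the 1 that passed beside lane. Sik1 peaked at ZT5.6 (amplitude 0.78, edgeR adjusted p = 0.00772, exact JTK P = 1), Rgs2 at ZT22.9 (0.62, 0.0471) and Nr4a3 at ZT4.3 (0.41, SE 0.30, 0.0424, exact JTK P = 1), with 9.79 CPM ± 13.2 (SD, n = 4) at ZT3.

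None of the 5 mitochondrial carrier relatives of the uncoupling proteins had a cosine past the threshold by edgeR, though Slc25a27 passed JTK (exact P = 0.0247) and Slc25a14 differed between time points (edgeR adjusted p = 0.00310). At an unadjusted p under 0.05 in edgeR, 1 of the 5 had a cosine (Slc25a27) and 0 did beside lane. Other thermogenic genes of brown fat had a cosine in 5 of 10 tested cases, all with a peak in the light phase, and in 2 beside lane. Gk, glycerol kinase, peaked at ZT9.3 (amplitude 0.60, edgeR adjusted p = 0.00269, exact JTK P = 0.208), Ckb, a creatine kinase, at ZT9.7 (0.40, 0.0230, exact JTK P = 0.0635) and Slc27a1, a fatty acid transporter, at ZT7.9 (0.40, 6.7e-07, 5.8e-04 beside lane). Kcnk3, a potassium channel gene, peaked at ZT5.9 (amplitude 0.23, edgeR adjusted p = 1.2e-04, 0.0365 beside lane) and Atp2a2, the calcium pump SERCA2, at ZT11.3 (0.21, 0.00970). Cidea had 1837 CPM and an amplitude of 0.03 (edgeR adjusted p = 0.666), a smaller fitted swing than that of Ucp1; the difference between these genes was not tested.

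**Figure D5:**
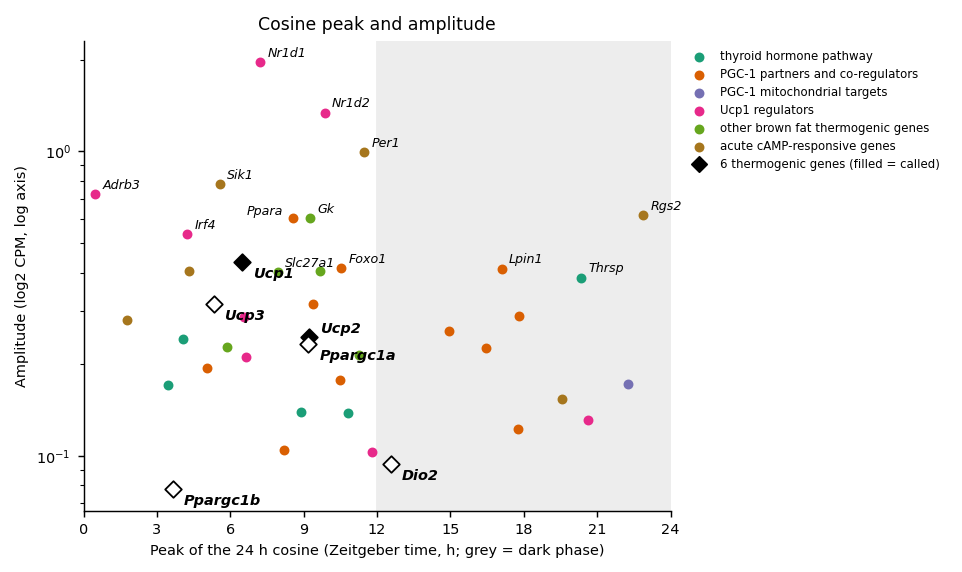
Peak of the fitted 24 h cosine (horizontal axis, Zeitgeber time in hours, grey for the dark phase) and its amplitude in log2 CPM (vertical axis, logarithmic). Coloured points are genes of the pathway lists with an edgeR adjusted p under 0.05, and diamonds are the 6 thermogenic genes, filled for Ucp1 (ZT6.5, 0.43) and Ucp2 (ZT9.2, 0.25), which passed, and open for the 4 that did not.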

How the data were processed

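RNA of iBAT from 32 mice, 1 library each, was sequenced, stranded and paired-end. The authors deposited raw read counts per Ensembl gene, which they had not normalized. The submitters' processing notes name GSNAP, HTSeq (0.6.1) and mm10; the strand setting of the counting is not given in the sources used here. Depth was 16300770 to 18254659 counts per library. Without molecular identifiers, reads are no independent molecules.

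Genes were filtered with filterByExpr of edgeR (4.0.16, R 4.3.3), leaving 15505 genes with 99.9% of counts, and scaled with TMM. Of 50686 identifiers, 50376 had a symbol. Log2 CPM used a prior count of 2. JTK was an own implementation with 15 cosine templates of 21 and 24 h on CPM, and its P was Bonferroni-adjusted over the templates. Differences were tested with edgeR's quasi-likelihood test, BH-adjusted over all tested genes at 0.05, on all 32 libraries, with lane as a factor, or within 1 lane. Tests were checked on simulated data. No library was a duplicate: in 48 same-time pairs, mean chi-square over genes was at least 7.56. Alternatives were DESeq2 (1.42.0), library size alone, no filter, a prior count of 0.5, a replicate block, leaving out each library, and leaving out 8 libraries above 5 times the median muscle marker sum.

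The 6 genes, the gene and marker lists and the tests were chosen with earlier results of these data known. Genes named are the members, the 4 genes of each list with the largest called cosine amplitude and a mean of at least 1 CPM, all genes behind a count of 5 or fewer, and the 3 genes nearest to each member; Prdm16, Ebf2, Cidea and Tfam were added after their values had been seen. 1 gene that this rule names is not reported here. Promoter windows are from RefSeq (GRCm38.p6) and were matched for 5 of the 6 members. Coordinates are from GENCODE on GRCm38. The labels do not say whether mice shared a cage or day, so p-values measure the spread between these mice.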

Additional observations from a re-analysis of the deposited data

Results flagged for a closer look

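In 48 groups of 4 mice (6 genes at 8 time points), the gap of the most extreme mouse to its nearest neighbour, divided by the range of the group, was above Dixon's critical value at 95% in 3. Chance flags about 1 in 20 such groups, and all 3 fell at ZT15.

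For Ucp3 at ZT15 the ratio was 0.963: replicate 1 had 32.9 CPM and the other mice 113.5 to 116.6 CPM. For Ucp1 the same mouse had 1134 CPM against 1911 to 2033 CPM, a ratio of 0.864. That library also had the highest skeletal muscle marker sum of all, 7697 CPM, a leukocyte sum of 192.5 CPM, the highest of its time point, the highest white adipocyte sum (428.8 CPM) and the lowest brown adipocyte sum (10460 CPM), to which Ucp1 itself contributes; the part of these in its Ucp1 and Ucp3 levels was not tested. Without it, the relation of Ucp1 and Ucp3 had r = 0.539 and an adjusted p of 0.0370, that of Ucp2 and Ucp3 an adjusted p of 0.0553, and Ucp2 a cosine beside lane (edgeR adjusted p = 0.0323). For Dio2 at ZT15 the ratio was 0.862, with 30.6 CPM in replicate 2 against 10.5 to 13.3 CPM in the others.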

How the results depend on the processing

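Of 91 counts of members called under alternatives, 74 stayed within 1.5 times the reported count. Without the 8 libraries high in muscle markers, JTK, the cosine and the test between time points each called 1 member (Ucp2) in place of 2, the cosine beside lane 0, ZT12 against ZT0 0, ZT18 against ZT6 1 (Ucp2) and the relations 1 (Ucp1 with Dio2) in place of 4; fewer libraries entered those fits. With the muscle marker sum as a covariate on all libraries, chosen after seeing the data, every one of these edgeR calls and the 4 relations remained, and Ucp3 with Ppargc1b was added (r = -0.474, adjusted 0.0361). Without the 8 libraries the values were a log2 fold change of -0.94 for Ucp1 at ZT18 against ZT6 (-0.99 with all libraries), 0.62 for Ucp2 at ZT12 against ZT0 (0.44), and r = 0.466 for Ucp1 with Ucp3 (0.607), -0.687 for Ucp2 with Ucp3 (-0.651) and 0.638 for Ppargc1a with Ppargc1b (0.619). With the leukocyte covariate the cosine beside lane called 3 members (Ucp1, Ucp3 and Ppargc1a) and ZT12 against ZT0 called 0. The shares of all genes called with this covariate are not given here, so these counts cannot be read as particular to the members. DESeq2 called 2 within lane 2. ZT12 against ZT0 gave 0 with library size alone, with no filter and on its 8 libraries alone, with log2 fold changes of 0.49, 0.43 and 0.44 for Ucp2, and ZT18 against ZT6 gave 1 (Ucp1) with library size alone; Ucp3 gained a call there on its 8 libraries alone and with the leukocyte covariate. Relations numbered 2 without the 2 farthest libraries and 0 within lane 2 or lane 4, where fewer mice entered, and Ucp2 with Ucp3 reversed within lane 4 (r = 0.489).

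Leaving out each library in turn gave 2 to 3 members for JTK, 2 for the cosine, 2 to 3 between time points, 0 beyond the cosine, 0 to 2 beside lane, 1 to 2 within lane 2, 0 within lanes 3 and 4, 0 to 1 at ZT12 against ZT0, 0 to 3 at ZT18 against ZT6, and 3 to 6 relations. Deviations of same-numbered mice of different time points had a median r of -0.119 over 112 pairs (-0.726 to 0.767), against 0.074 for other numbers. By these medians the replicate numbers showed no pairing of the samples. Of the 112 pairs, 49 had r over 0.1, and whether some mice were linked is not known. With the number as a replicate block the cosine called 2 members (edgeR adjusted p = 0.0133 for Ucp1 and 0.00236 for Ucp2), and no call of a member changed.

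Counts over all genes moved by over 1.5 times in some fits: without muscle-rich libraries to 618 of 1456 beyond the cosine, 1564 of 2661 beside lane, 54 of 286 within lane 3, 126 of 649 within lane 4 and 1363 of 2459 at ZT12 against ZT0; with DESeq2 to 2983, 827 and 999 within lanes 2, 3 and 4; with the replicate block to 107 and 60 within lanes 3 and 4; and to 1259 at ZT12 against ZT0 on its 8 libraries alone. Leaving out 1 library took the count within lane 2 from 1974 to between 914 (without ZT0 replicate 3) and 3316 (without ZT0 replicate 4), within lane 3 from 286 to as few as 58 (without ZT15 replicate 3) and within lane 4 from 649 to between 190 (without ZT21 replicate 1) and 404 (without ZT18 replicate 4). At ZT18 against ZT6 it fell from 2615 to 1733 without ZT18 replicate 2. With 4 mice per time point and log2 SEs of 0.05 to 0.26 on the amplitudes of the 6 members, swings of the size of those errors are not detectable.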

Other observations

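Some pairs of members passed within lane 3 (ZT9, ZT12 and ZT15) and not over all mice, a comparison chosen after the values were seen. In lane 3 Ucp1 and Ucp2 had r = -0.740 (exact permutation p = 0.0139, adjusted 0.0417 over 15 pairs), Ucp2 and Dio2 r = -0.781 (adjusted 0.0312) and Dio2 and Ppargc1b r = -0.786 (adjusted 0.0119), none of which passed over all 32 mice (adjusted 0.0796, 0.0908 and 0.554). Dio2 and Ppargc1b had the opposite sign in the other lanes, with r = 0.465 in lane 2 and 0.865 in lane 4 (exact permutation p = 0.00868, adjusted 0.130). Whether the lanes differed in these relations was not tested.

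White adipocyte markers, among them Lep, which encodes leptin, had r = -0.405 with Ucp1 (permutation p = 0.0307, adjusted 0.138 over 18) and -0.461 with Ucp3 (permutation p = 0.0486, adjusted 0.166) over all mice. Within lane 3 these were -0.811 and -0.892, and within lane 4 they were 0.301 and 0.485. The white adipocyte sum had its lowest mean at ZT6 (67.1 CPM), the hour of the highest mean of Ucp3, and its highest at ZT15 (286.3 CPM).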
